A study of Homo sapiens with 9 samples.

Results

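The baseline transcriptome of scramble control RBE cells was described from 3 control libraries of the 9 in the series. RBE is an established human cell line derived from a cholangiocarcinoma, the cancer of bile ducts, of the intrahepatic kind. The series infected these cells with lentivirus carrying a scramble sequence (control), a hairpin against IDH1 (shIDH1) or a hairpin against JOSD2 (shJOSD2), with 3 libraries of each. The control cells carry a lentiviral vector too, so they are not uninfected RBE cells, and it is not stated in the labels if the libraries came from separate infections or cultures. Genes were ranked by their mean FPKM (fragments scaled to transcript length and library size) over the control libraries, which allows levels to be compared between genes per transcript length. A gene was called expressed at 1 FPKM or more in all 3 libraries, near absent below 0.1 FPKM in all 3, and low between these.

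Cholangiocytes, the epithelial cells of the bile ducts, share a fetal progenitor, the hepatoblast, with hepatocytes. Cholangiocytes are recognised by keratins 7 and 19 and the transcription factor SOX9, whereas hepatocytes secrete albumin, apolipoproteins and clotting factors. Both lineages use transcription factors such as HNF4A and the FOXA family. Intrahepatic cholangiocarcinoma is known for mutations in the cytosolic isocitrate dehydrogenase IDH1, whose mutant form makes 2-hydroxyglutarate from 2-oxoglutarate.

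The control libraries held 68402037 to 70157474 deposited counts, with each fragment carrying about 4 of them, and 11873 to 12143 genes at 1 FPKM or more. Of 36225 genes in the deposited table, 30065 had a count in a control library and 11439 were expressed, 10430 of them with a protein-coding transcript. These 10430 are 60.2% of the protein-coding genes in the table, the share to set beside the count of expressed genes in any list. The median level was 0.364 FPKM over genes with a count and 6.30 FPKM over expressed genes. Between any pair of control libraries the median absolute log2 difference of expressed genes lay at 0.12 to 0.14, and 30 to 34 of them differed at least 2-fold. Genes below 1 FPKM in any control library are left out of these values. Replicate 1 nevertheless stood apart from replicates 2 and 3 at a small set of genes, several of them fetal liver or hepatocyte genes, and levels that hang on this are given per library.

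Mitochondrial transcripts headed the ranking. Genes of the mitochondrial genome filled 16 of the first 20 places and 24 of the first 100, and held 34.3% ± 1.33 of all FPKM (SD, n = 3) but 9.72% ± 0.461 of all counts, since most of them are short. MT-CO1, the catalytic subunit of cytochrome c oxidase, came first at 16454 ± 830 FPKM, followed by MT-CO3 at 11317 ± 720 and the ribosomal RNA MT-RNR2 at 9602 ± 188. MT-CO2, MT-ND4L, MT-ATP8, MT-ND4, MT-ATP6, MT-ND1, MT-CYB and MT-ND2 took the next places, and MT-ND5, MT-TS1, MT-RNR1, MT-TL1 and MT-ND3 were among the 20 as well. MTATP6P1, a nuclear pseudogene nearly identical to MT-ATP6, ranked 19 at 1103 ± 114 FPKM, a value that is uncertain because reads of the copies can be exchanged.

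The most abundant nuclear genes were those of basic cell machinery. GAPDH, a glycolytic enzyme, ranked 12 at 2457 ± 251 FPKM, the translation factor EEF1A1 ranked 13 at 2114 ± 117, and the cytoskeletal actin ACTG1 ranked 15 at 1584 ± 203. Cytosolic ribosomal protein genes took 19 of the first 100 places. The intermediate filament genes VIM and KRT19 were at ranks 33 and 42. The first 100 genes together held 46.9% ± 1.2 of all FPKM and the first 1000 held 69.9% ± 1.02 (SD, n = 3).

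**Figure D1:**
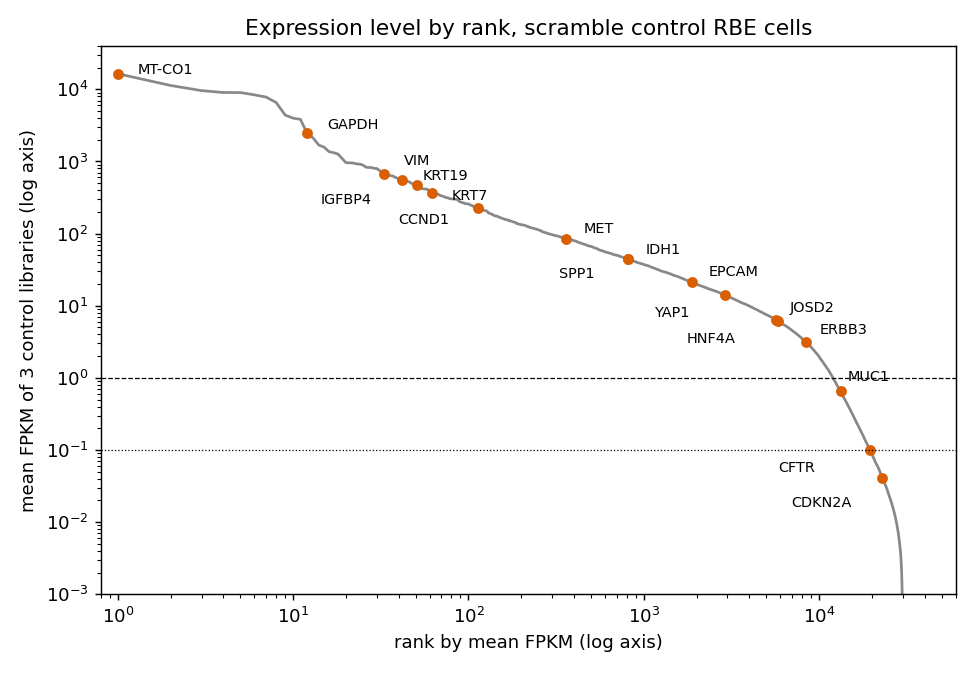
Mean FPKM of the 3 control libraries (log axis) against the rank of the gene (log axis), with selected genes marked as points and dashed and dotted lines at 1 and 0.1 FPKM. The curve drops from MT-CO1 at 16454 FPKM through KRT19 at rank 42 to CDKN2A, which lies below 0.1 FPKM.

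The biliary identity named by the label was present. KRT19 (chr17:41523617-41528308, minus strand, GRCh38 as for all positions) stood at 599, 585 and 497 FPKM in control replicates 1, 2 and 3, and KRT7 (chr12:52232520-52252186, plus strand) at 371, 403 and 312. SPP1, which encodes the secreted phosphoprotein osteopontin, stood at 51.5, 37.9 and 42.5 FPKM (chr4:87975650-87983426, plus strand), and SOX9 at 21.0, 15.8 and 15.2 (chr17:72121020-72126416, plus strand). All 4 defining markers were therefore expressed in each library, SOX9 and SPP1 highest in replicate 1, and the keratins lowest in replicate 3.

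Of the 24 genes of the biliary list, 18 were expressed, beside 60.2% of all protein-coding genes in the table. Of the others 4 were low and 2 were near absent, and the median of the list was 12 FPKM. ITGB4, the integrin of hemidesmosomes, and CLDN4, a tight junction claudin, followed the keratins at 87.6, 86.2 and 84.7 and at 53.2, 55.9 and 51.6 FPKM. The surface protein EPCAM stood at 20.3 to 22.3 FPKM. Some transport genes of the mature duct were low or missing. CFTR, the apical chloride channel, stood at 0.0225, 0.110 and 0.164 FPKM, the secretin receptor SCTR at 0.0742 to 0.119, and SLC10A2, the apical bile acid transporter, had 0 counts in every control library. ONECUT1, a transcription factor of early bile duct development, was near absent, at 0.00893, 0 and 0.0184 FPKM.

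The table holds 19 keratin genes of the list, of which 8 were expressed. KRT18 and KRT8, the partners that form filaments in simple epithelia, stood at 379 to 417 and 320 to 397 FPKM. KRT18, KRT7 and KRT8 could not be placed in order, since the ranges of neighbours overlapped, while KRT19 lay above and KRT80 (87.9 to 96.7 FPKM) below them without overlap. KRT5, KRT14, KRT6A and KRT6B, keratins of stratified epithelium, and the intestinal KRT20 were below 0.1 FPKM in each library, whereas KRT81, a hair keratin, stood at 15.9 to 25.7, KRT15 at 4.05 to 4.94 and KRT10 at 1.88 to 3.92.

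Junction genes of epithelia were expressed beside mesenchymal genes. Of 24 junction genes 21 were expressed, beside 60.2% of protein-coding genes, and 0 were near absent. The list was led by CLDN1 (71.9 to 90.3 FPKM), CLDN2 (78.4 to 82.3) and the junction plakoglobin JUP (64.3 to 69.1). CDH1, the epithelial cadherin, stood at 7.07, 8.67 and 8.92 FPKM, whereas CDH2, the neural cadherin typical of mesenchymal cells, stood at 18.2, 17.3 and 17.9. CDH2 thus lay 2.19 ± 0.333 times as high as CDH1 (SD, n = 3). Vimentin, the filament protein of mesenchymal cells, reached 656, 711 and 674 FPKM and was 1.22 ± 0.130 times as high as KRT19.

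Other mesenchymal genes divided by kind. TGFBI, a matrix protein induced by TGF-beta, stood at 87.3, 91.3 and 80.6 FPKM. The repressors of epithelial genes ZEB1 and SNAI2 were expressed at 3.46 to 4.53 and 3.37 to 3.98 FPKM, while ZEB2 stayed at 0.0464 to 0.0633. Of the fibrillar collagen genes, COL1A2 and COL3A1 were below 0.1 FPKM in all 3 libraries, while COL1A1 stood at 1.74 to 2.21 and COL5A1 at 15.1 to 19.3. ESRP1 and GRHL2, factors that maintain epithelial splicing and transcription, were low, at 0.0565, 0.468 and 0.479 and at 0.00784, 0.162 and 0.118 FPKM, lowest in replicate 1.

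Of 22 liver transcription factors 17 were expressed, beside 60.2% of all protein-coding genes in the table, among them KLF6 (30.6 to 36.5 FPKM), SOX4 (10.5 to 17.5), FOXA2 (8.63 to 10.3), HHEX (8.56 to 9.71) and HNF4A, a nuclear receptor central to hepatocyte gene expression (5.83, 5.69 and 6.72). Of 26 hepatocyte genes 7 were expressed, 13 were low and 6 near absent, with a median of 0.679 FPKM. Without replicate 1 the expressed ones were 12, since AHSG, RBP4, APOA2, ALB and TTR fell below 1 FPKM in that library alone. SERPINA1, encoding alpha-1-antitrypsin, had the highest mean of the list at 33.6, 37.8 and 33.9 FPKM, while APOA1, at 2.91, 40.0 and 45.5, lay above it in replicates 2 and 3. APOH and AMBP, encoding plasma proteins of the liver, stood at 4.90 to 6.10 and 2.72 to 2.95 FPKM. Enzymes of the mature hepatocyte such as TAT, CYP3A4 and CYP8B1, and the iron carrier transferrin (TF), were near absent. In bulk RNA, a transcript present in fewer cells and one present at less RNA per cell cannot be told apart.

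**Figure D2:**
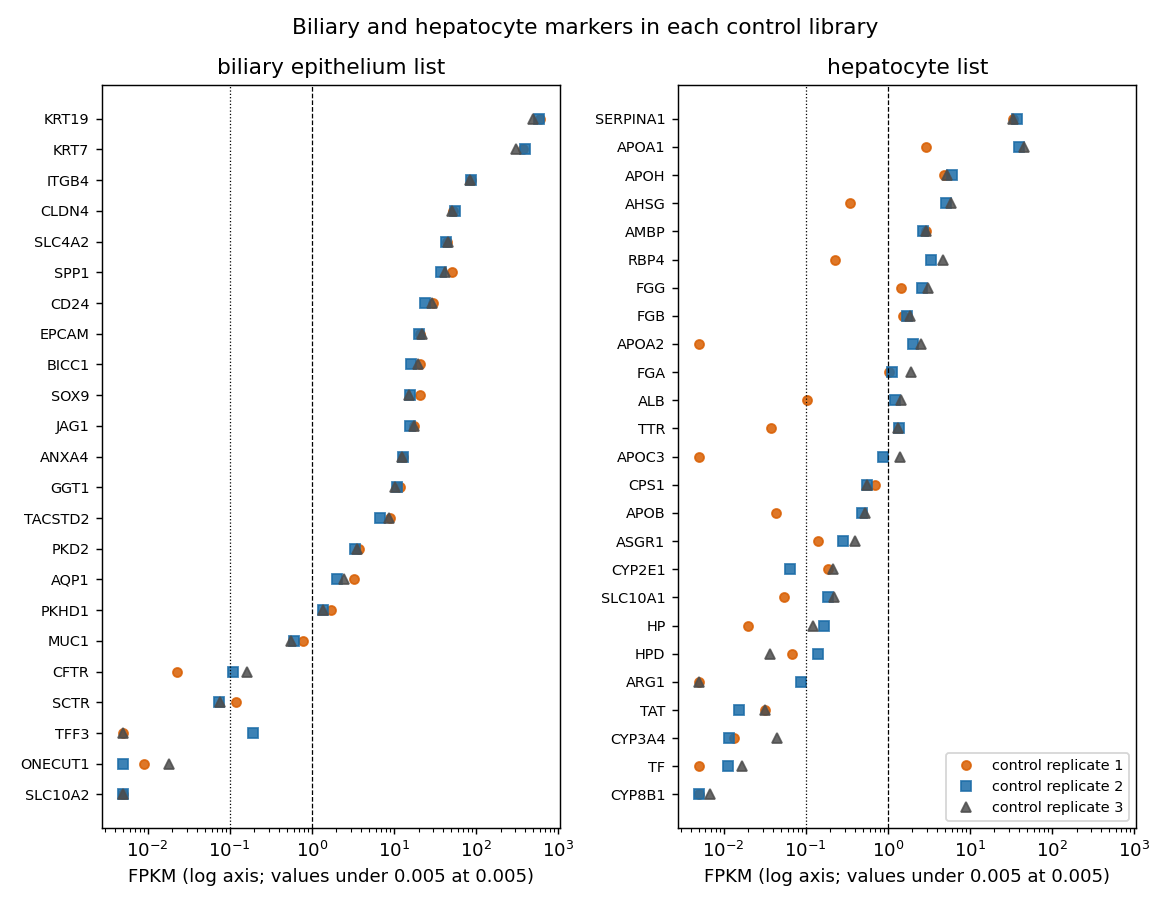
FPKM (log axis, values under 0.005 drawn at 0.005) of genes of the biliary list (left) and of the hepatocyte list (right), 1 symbol per control library, with lines at 1 and 0.1 FPKM. The 3 libraries lie close together at the expressed biliary genes, whereas replicate 1 lies far to the left of the others at APOA1, AHSG, RBP4, APOA2, ALB and TTR but not at SERPINA1, APOH or AMBP.

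Markers shared with hepatoblasts and stem cells were led by ALDH1A3, a retinal dehydrogenase, at 94.9, 84.3 and 112 FPKM, the hyaluronan receptor CD44 at 80.9 to 83.8 and the imprinted gene PEG10 at 50.7 to 64.6. LGR5, LIN28B and DLK1 were near absent. Among 13 mucins only MUC13, a transmembrane mucin, was expressed (8.82 to 9.97 FPKM), and the secreted mucins MUC5AC, MUC5B and MUC6 were near absent.

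Markers of other cell types were mostly low or near absent. The table holds 12 of the intestinal genes, and 2 of them were expressed, the microvillus protein VIL1 and the cadherin CDH17, at 3.10 to 3.59 and 1.74 to 2.62 FPKM. None of 9 stomach, 5 pancreas and 8 endothelial genes in the table was expressed. S100A2 (12.3 to 12.7 FPKM) was the expressed gene among 9 squamous and basal markers, and ENO2, a glycolytic enzyme, among 5 neuroendocrine markers. CD68, a lysosomal protein (27.8 to 31.8 FPKM), and lysozyme (LYZ) were the expressed leukocyte markers, while PTPRC, the pan-leukocyte CD45, stayed at 0.624 to 0.915 FPKM. Of fibroblast markers ACTA2, PDGFRA and COL1A1 were expressed, and decorin (DCN) had 0 counts in every control library.

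Of 31 genes of glucose uptake and glycolysis 22 were expressed, beside 60.2% of protein-coding genes. ENO1 (344 to 415 FPKM), ALDOA (307 to 358) and TPI1 (288 to 347) followed GAPDH. The muscle-type pyruvate kinase gene PKM stood at 271, 298 and 279 FPKM, whereas PKLR, the liver and red cell form, was near absent, as was PGAM2. HK1 exceeded HK2 4.94 ± 0.683 times and PFKP exceeded PFKL 7.15 ± 0.346 times (SD, n = 3). LDHA, which encodes the muscle-type lactate dehydrogenase subunit, stood at 194, 226 and 228 FPKM. Its partner LDHB, the heart-type subunit, was far lower and unequal, at 0.384, 4.56 and 5.19. The gluconeogenic genes PCK1 and FBP1 were low, at 0.162 to 0.186 and 0.369 to 0.457 FPKM, while the mitochondrial PCK2 stood at 17.6 to 19.4. PYGB, the brain-type glycogen phosphorylase, stood at 162, 156 and 148 FPKM, and exceeded the liver type PYGL 5.68 ± 0.145 times.

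The tricarboxylic acid cycle was expressed throughout, with all 23 listed genes at 1 FPKM or more. IDH1 (chr2:208236229-208266074, minus strand), the NADP-dependent enzyme of the cytosol, stood at 45.6, 38.9 and 47.4 FPKM, lowest in replicate 2. IDH2, its mitochondrial counterpart, stood at 30.2, 34.5 and 31.8, highest in replicate 2, so that the ratio of IDH1 to IDH2 was 1.38 ± 0.213 (SD, n = 3). The NAD-dependent enzyme was represented by IDH3G (41.7 to 52.8 FPKM), IDH3B (33.4 to 37.4) and IDH3A (8.93 to 9.37). D2HGDH, a dehydrogenase that removes 2-hydroxyglutarate, was expressed at 3.10 to 3.26 FPKM.

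Of 17 glutamine and glutamate genes 16 were expressed, led by the transporters SLC1A5 (59.7, 71.4 and 73.8 FPKM) and SLC7A5 (56.4, 62.6 and 82.8), both lowest in replicate 1. Of 17 serine and one-carbon genes 12 were expressed, beside 60.2% of protein-coding genes. They were led by SHMT2, the mitochondrial serine hydroxymethyltransferase (62.8 to 71.1), and PSAT1 (57.5 to 64.7). MTHFD2, a mitochondrial folate enzyme common in tumours, was low, at 0.132 FPKM in replicate 1 against 1.37 and 1.34 in the others. MTAP, the methionine salvage enzyme, and BHMT, a liver methyltransferase, were near absent.

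Lipid synthesis was prominent. Of 23 genes of cholesterol synthesis and uptake 22 were expressed, with a median of 63.5 FPKM, led by MSMO1 (210, 128 and 182 FPKM), DHCR7 (155, 131 and 137), ACAT2 (140, 116 and 133) and HMGCS1 (143, 105 and 123). Replicate 1 was the highest library in 20 of these 22 genes, against 40.6% of all expressed genes, and replicate 2 the lowest in 17, against 44.8%. NSDHL, a sterol dehydrogenase of the same pathway, was low, at 0.307, 0.671 and 0.509 FPKM. SCD, the stearoyl-CoA desaturase, stood at 291, 214 and 268 FPKM, the citrate lyase ACLY at 226, 202 and 199 and the fatty acid synthase FASN at 192, 176 and 162. Of 17 genes of fatty acid oxidation and ketogenesis 10 were expressed, beside 60.2% of protein-coding genes, led by HADHA at 46.1 to 49.2 FPKM.

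Of 20 bile acid genes 5 were expressed, beside 60.2% of protein-coding genes, the exporters ABCC3, ABCC4 and ABCC2 at 11.4 to 19.9 FPKM, the uptake carrier SLCO1B3 at 10.8 to 12 and the nuclear receptor NR0B2. CYP7A1, the rate-limiting enzyme of bile acid synthesis, and ABCB11, the bile salt export pump, were near absent. Among 24 genes of xenobiotic metabolism 11 were expressed, beside the same 60.2%, led by AKR1B10, an aldo-keto reductase (24.4, 24.9 and 29.8 FPKM). CYP1B1 and CYP1A1, classic targets of the aryl hydrocarbon receptor, stood at 8.04, 6.58 and 18.9 and at 3.33, 4.12 and 9.10 FPKM, both highest in replicate 3. All 19 redox genes were expressed, led by the ferritin chains FTL (752, 817 and 837 FPKM) and FTH1 (515, 542 and 573).

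Matrix and protease genes made up much of the secreted repertoire. Of 23 matrix genes 22 were expressed, with CCN1 (74.7 to 85.1 FPKM), TNC (55.5 to 64.2) and LAMB1 (52.2 to 60.1) after TGFBI. Of 25 proteases and inhibitors 19 were expressed, beside 60.2% of protein-coding genes. PLAU, the urokinase plasminogen activator, stood at 122, 118 and 119 FPKM. The tissue-type activator PLAT was at 2.43 to 3.40 FPKM. MMP14, a membrane metalloproteinase, stood at 51.2 to 61.7 FPKM and the epithelial MMP7 at 51.8, 42.2 and 32.6, while MMP2 and MMP9 stayed below 1 FPKM in every library.

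Growth factor genes included most ligands of the EGF receptor. Of 27 growth factors 21 were expressed, beside 60.2% of protein-coding genes. They were led by progranulin (GRN, 85.2 to 93.2 FPKM), the EGF receptor ligand AREG (79.9 to 86.2), GDF15 (70.7 to 92.2) and midkine (MDK, 49.8 to 56.4). The other EGF receptor ligands EREG, TGFA, HBEGF and BTC were also expressed, at 2.05 to 33.3 FPKM, whereas EGF itself was low (0.110 to 0.176). HGF and IGF1, which mesenchymal and liver cells make, were near absent, with 0 counts of IGF1. Cytokine genes were led by MIF (217, 286 and 208 FPKM) and LIF (27.8 to 30.4), and IL6, IL1A, CXCL10 and CXCL12 were near absent. IGFBP4, which binds insulin-like growth factors, was the most abundant secreted protein gene of its list at 437, 511 and 463 FPKM. CD59, CLU and CD46, which restrain complement, led the complement and coagulation list. Of its genes 13 of 23 were expressed, beside 60.2% of protein-coding genes.

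Of 31 receptor tyrosine kinases that the table holds, 17 were expressed, a share near the 60.2% of all protein-coding genes. MET, the HGF receptor, stood at 86.5, 77.9 and 88.1 FPKM and AXL, the GAS6 receptor, at 83.1, 84.8 and 83.4, ranges that overlapped. EPHA2, an ephrin receptor, followed at 66.7 to 72.6 and EGFR at 33.3 to 38.7, each apart from its neighbour in the order. ERBB2 stood at 7.19 to 8.32 FPKM, and EGFR was 4.64 ± 0.611 times as high (SD, n = 3). Among the fibroblast growth factor receptors FGFR4 (17.6 to 19.5), FGFR1 (13.4 to 17.3) and FGFR3 (8.54 to 9.33) were expressed, and FGFR2, the receptor fused in some cholangiocarcinomas, was low at 0.399, 0.606 and 0.778. KIT, ERBB4, ALK and NTRK2 were near absent.

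The Hippo pathway, which restrains the coactivators YAP and TAZ, was expressed in 22 of 25 listed genes, beside 60.2% of protein-coding genes. FAT1, an atypical cadherin, stood at 26.1 to 30.8 FPKM. WWTR1, encoding TAZ, stood at 26.4, 24.0 and 30.4 FPKM and YAP1 at 14.8, 13 and 14.8, so that WWTR1 was 1.9 ± 0.139 times as high (SD, n = 3). JOSD2 (chr19:50505998-50511191, minus strand), the Josephin-domain deubiquitinase targeted in the series, stood at 6.66, 6.31 and 6.15 FPKM, at rank 5671 and below its relative JOSD1 (13.1 to 15.2). All 4 TEAD genes, whose proteins bring YAP and TAZ to DNA, were expressed, led by TEAD1 at 20.1 to 24.8 FPKM. Replicate 2 was the lowest library in 17 of the 22 expressed Hippo genes, against 44.8% of all expressed genes. VGLL3, a TEAD cofactor, was near absent.

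In the RAS, MAPK and PI3K list 23 of 24 genes were expressed, led by MAP2K1 (32.6 to 34.0 FPKM), and BRAF lay at the threshold, at 0.937 to 1.02. NOTCH2 (17.2 to 20.3 FPKM) and its ligand JAG1 (15.7 to 17.9) led the Notch list, of which 10 of 17 genes were expressed, while the delta-like ligand DLL3 and the receptor NOTCH4 were near absent. LGR4 (27.3 to 34.6 FPKM) and LRP5 (26.0 to 33.8) led the Wnt list, with 17 of 25 expressed, in which LGR5 was near absent. The counts of the RAS, Notch and Wnt lists, and of the TGF-beta list that follows, stand beside 60.2% of protein-coding genes. TGF-beta and BMP signalling genes were expressed in 17 of 18 cases, led by ID1 (83.8, 113 and 59.9 FPKM) and the receptor TGFBR2 (35.5 to 41.8). The progesterone receptor gene PGR had 0 counts in every control library, and ESR1 was near absent, whereas NR2F2, NR2F6, NR1H2 and NR3C1 stood at 8.37 to 12.1 FPKM. BCL2L1, which encodes the survival factor BCL-XL, stood at 99.5 to 107 FPKM and its relative BCL2 at 0.222 to 0.371. NT5E, the ectonucleotidase CD73 (93.9 to 103 FPKM), and B2M (54.1 to 55.5) led the antigen presentation and checkpoint list, and ITGB1 (335 to 377) and ITGA3 (145 to 171) led the integrins.

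Of 28 cholangiocarcinoma drivers and tumour suppressors 23 were expressed, beside 60.2% of protein-coding genes. They were led by CCND1, encoding cyclin D1, at 238, 204 and 231 FPKM, and MYC at 47.4 to 51.0. Near absent were CDKN2A and CDKN2B, which encode inhibitors of the kinases that cyclin D activates, and MTAP. These genes lie side by side on chromosome 9. CDKN2A (chr9:21967753-21994873, minus strand) had 5, 18 and 19 deposited counts in replicates 1, 2 and 3, CDKN2B (chr9:22002903-22009305, minus strand) had 0, 0 and 3, and MTAP (chr9:21802636-21937651, plus strand) had 0, 23 and 34. At about 4 counts per fragment these are few fragments in any library, and for CDKN2B at most about 1. Most of the counts lie in replicates 2 and 3. The expressed gene nearest on one side, KLHL9 (chr9:21329665-21335404, minus strand), stood at 6.26, 5.38 and 5.98 FPKM, and FOCAD and MLLT3 beyond it stood at 4.27 to 4.95 and 3.32 to 4.37. These neighbours were chosen after their values were seen. Copy number of these genes was not tested.

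**Figure D3:**
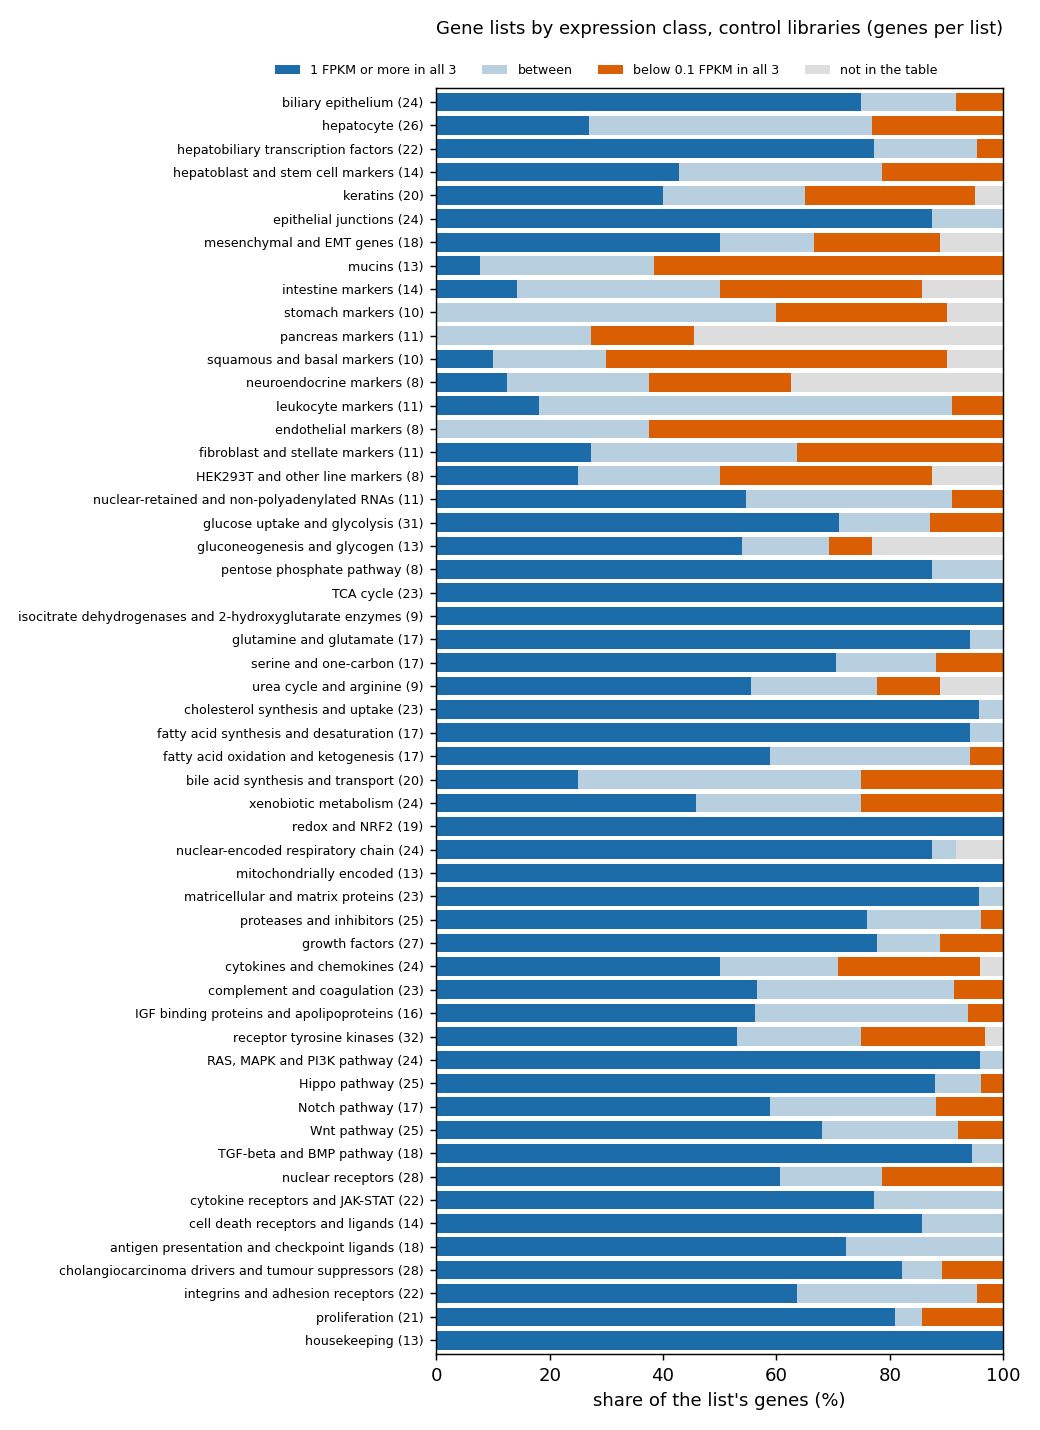
Share of the genes of each list (percent, with the number of genes in parentheses) that were at 1 FPKM or more in all 3 control libraries, below 0.1 FPKM in all 3, between these, or not in the table. The tricarboxylic acid cycle, redox and mitochondrially encoded lists are filled (23, 19 and 13 genes), while 1 of 13 mucins was expressed.

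Replicate 1 differed from both replicates 2 and 3 at few genes. Among 11993 genes with a mean of 1 FPKM or more, 38 were at least 2-fold lower in replicate 1 than in each of the others on the log2(FPKM + 0.5) scale, which is 0.317% of them, and 7 were at least 2-fold higher, which is 0.0584%. Of the 38, 29 have a protein-coding transcript, and 17 met a 4-fold limit. By the same rule replicate 2 was lower than both others at 14 genes (5 coding) and higher at 16 (10 coding), and replicate 3 lower at 19 (6 coding) and higher at 8 (5 coding). The filter on the mean admits a gene low in 1 library more readily than a gene high in 1 library. Genes such as AFP, GPC3 and LDHB were below 1 FPKM in replicate 1 and passed through replicates 2 and 3. With no filter, 71 genes were lower and 32 higher in replicate 1. The split was named with earlier results of these data known, and a library set against others of its own group allows no test, so the values are a description.

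Apolipoproteins and other plasma proteins of the liver were among the genes lower in replicate 1. APOA1 (chr11:116835751-116837614, minus strand), the main protein of high-density lipoprotein, stood at 2.91, 40.0 and 45.5 FPKM, with 233, 3144 and 3539 counts. APOE, which carries cholesterol between cells, stood at 1.09, 12.2 and 13.7 FPKM, and APOA2 at 0, 2.04 and 2.51, at least 12.5-fold lower against a floor of 12 counts in the library. At each of these genes replicates 2 and 3 lay close together and replicate 1 far below. AHSG, encoding fetuin-A, stood at 0.342, 5.10 and 5.91 FPKM, and RBP4, the plasma retinol carrier, at 0.225, 3.41 and 4.70.

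Genes of fetal tissues, singled out after their values were seen, were among them too. AFP, encoding alpha-fetoprotein, the main plasma protein of the fetal liver, stood at 0.187, 2.49 and 2.33 FPKM, and GPC3, a cell-surface proteoglycan of fetal liver and hepatocellular carcinoma, at 0.232, 4.42 and 4.42. IGF2, the fetal insulin-like growth factor, stood at 3.06, 8.68 and 11 FPKM, and the RNA-binding protein gene IGF2BP1 at 0.155, 1.80 and 2.01. CLDN6, a claudin of embryonic epithelium, stood at 0.209, 2.96 and 2.96. Each was lowest in replicate 1, and only IGF2 of these passed 1 FPKM there. Of the 14 hepatoblast and stem cell markers AFP and GPC3 met the limit, and the list's summed level was 244, 232 and 274 FPKM.

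Metabolic genes were among them as well. GSTP1, a glutathione transferase, stood at 0.495, 6.69 and 8.12 FPKM, a 13.5-fold and 16.4-fold difference. LDHB differed 11.9-fold and 13.5-fold, which moved the ratio of LDHA to LDHB from 504 in replicate 1 to 49.5 and 43.9 in replicates 2 and 3. The glucose transporter gene SLC2A3 stood at 1.47, 8.09 and 8.76 FPKM, while its relative SLC2A1 stood at 17.1, 20.4 and 21.2. DKK1, a secreted Wnt inhibitor, was the listed gene nearest to the 2-fold limit, at 5.96, 12.4 and 15.2 FPKM.

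Outside the lists, FMOD, a matrix proteoglycan, stood at 0.0715, 2.63 and 2.94 FPKM, a 36.8-fold and 41.2-fold difference. S100A14, of the calcium-binding S100 family, stood at 1.02, 6.16 and 7.56. HNRNPUL2-BSCL2, a read-through locus, SEPTIN7P3, a pseudogene, and the clone-named AC138811 and AC007192 had 0 counts in replicate 1, and their values are uncertain because reads can be assigned to an overlapping or similar gene instead. ARPIN-AP3S2 and IFI6 lay just outside the limit, at 0.751, 2.00 and 2.54 and at 2.57, 5.55 and 6.76 FPKM.

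**Figure D4:**
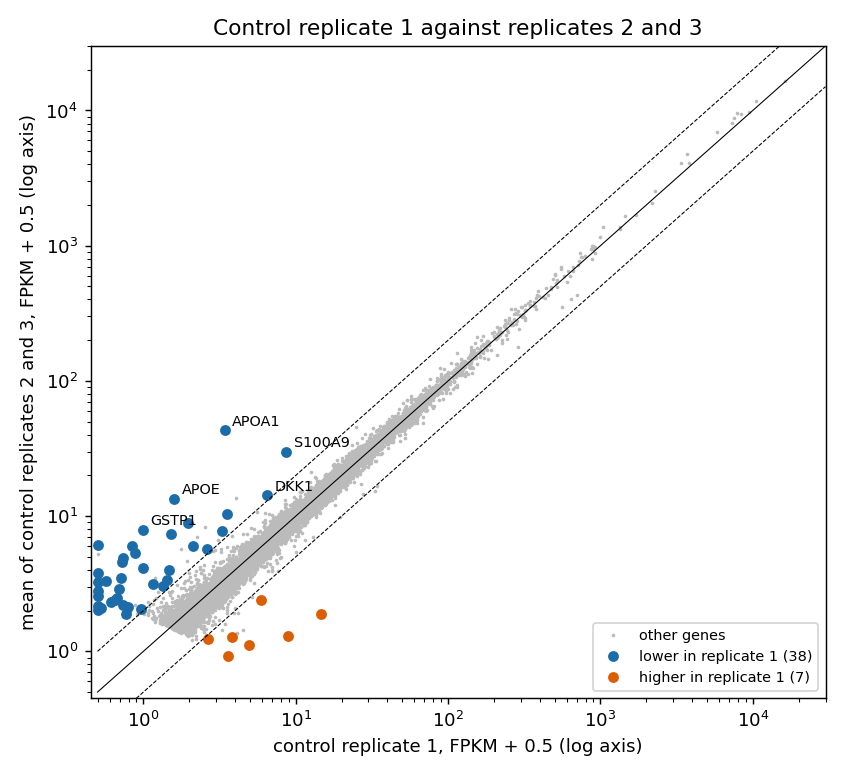
FPKM + 0.5 in control replicate 1 (log axis) against the mean of control replicates 2 and 3 (log axis), 1 point per gene with a mean of 1 FPKM or more; the solid line marks equality and the dashed lines a 2-fold difference. The 38 genes lower in replicate 1 are mostly weak in that library, and APOA1 and S100A9 are the most abundant of them in the others.

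In all, 12 of the 891 genes of the 54 lists in the table were lower in replicate 1 and 0 were higher, both with the filter on the mean. Over all 11993 genes past the filter the shares were 0.317% lower and 0.0584% higher, so the 0 does not set the lists apart. The hepatocyte list held APOA1, AHSG, RBP4 and APOA2 among its 10 genes past the filter, and without the filter on the mean 7 of its members met the limit. Replicate 1 was below both others by any amount at 18 of the 26 hepatocyte genes, against 23.7% of all genes with a control count. Among the 18 were ALB (0.104, 1.23 and 1.43 FPKM) and TTR (0.0376, 1.35 and 1.32). They also include APOA1, AHSG, RBP4 and APOA2, which the limit itself picked. Of these AHSG, RBP4 and APOA2 passed the filter only through replicates 2 and 3. The list was chosen with earlier results of these data known, so the 18 are a description. The summed level of the list was 50.3, 108 and 114 FPKM, or 47.4, 68.2 and 68.5 without APOA1. Of the 22 liver transcription factors, HNF4A included, 0 met the limit, and so did 0 of the 24 biliary genes, which at a background of 0.317% does not set these lists apart. Replicate 1 was the highest library in 13 of the 18 expressed biliary genes, against 40.6% of all expressed genes.

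Leukocyte markers summed to 36.4, 44.7 and 35.6 FPKM, highest in replicate 2, and intestinal markers to 5.50, 7.07 and 7.83, lowest in replicate 1. Endothelial markers summed to 0.940, 0.867 and 0.743 FPKM and the fibroblast markers to 24.3, 21.5 and 20.8, both highest in replicate 1. Of 30065 genes with a count in a control library, 42 were below 0.5 FPKM in replicate 1 and at 1 FPKM or more in both others. Of the 42, 32 have a protein-coding transcript, against 13 genes the other way round, 3 of them coding. The first count asks for 1 FPKM in 2 libraries and the second in 1, and neither is given for replicates 2 and 3. The part of other cell types in these differences was not tested.

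The 6 knockdown libraries were set beside these genes. At 24 of the 38 genes, 23 of them coding, all 6 lay nearer to replicate 1 than to the mean of replicates 2 and 3, against 34.5% of all 11993 genes. At 0 of the 14 genes lower in replicate 2 and 0 of the 19 lower in replicate 3 were all 6 nearer to the low replicate. The share over all genes was not computed for replicates 2 and 3, so these counts have no background of their own. APOA1 stood at 2.51 to 6.24 FPKM in the knockdown libraries, APOE at 1.07 to 1.79, GSTP1 at 0.398 to 0.710, GPC3 at 0.238 to 0.755 and LDHB at 0.272 to 0.881. The hepatocyte list as a whole summed to 76.7 to 146 FPKM there, against 50.3, 108 and 114 in control replicates 1, 2 and 3. By that sum all 6 knockdown libraries lay above replicate 1. The knockdown range lay below both replicates 2 and 3 at 31 of the 38 genes, against 21.6% of all 11993. The knockdown libraries differ from the controls by the hairpin, so nearness to replicate 1 and a difference that goes with the hairpins cannot be told apart at these genes.

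Within the knockdown libraries 1 library was often highest. Of the 24 genes, shJOSD2 replicate 2 was the highest knockdown library at 17, against 21% of all 11993 genes. AHSG stood at 1.47 FPKM there against 0.522 to 0.934 in the other 5, and RBP4 at 0.740 against 0.162 to 0.355. Other genes did not share the pattern. VTN, encoding vitronectin, stood at 2.79, 7.09 and 7.39 FPKM in the controls, against 4.77 to 6.17 under the hairpins, all nearer to replicates 2 and 3. SLC2A3 stood at 4.63 to 5.21 FPKM in shIDH1 and 0.938 to 1.19 in shJOSD2 libraries, and S100A9, a calcium-binding protein of myeloid cells and inflamed epithelium, at 8.16, 32.6 and 26.0 in the control and 9.34 to 31.6 in the knockdown libraries.

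**Figure D5:**
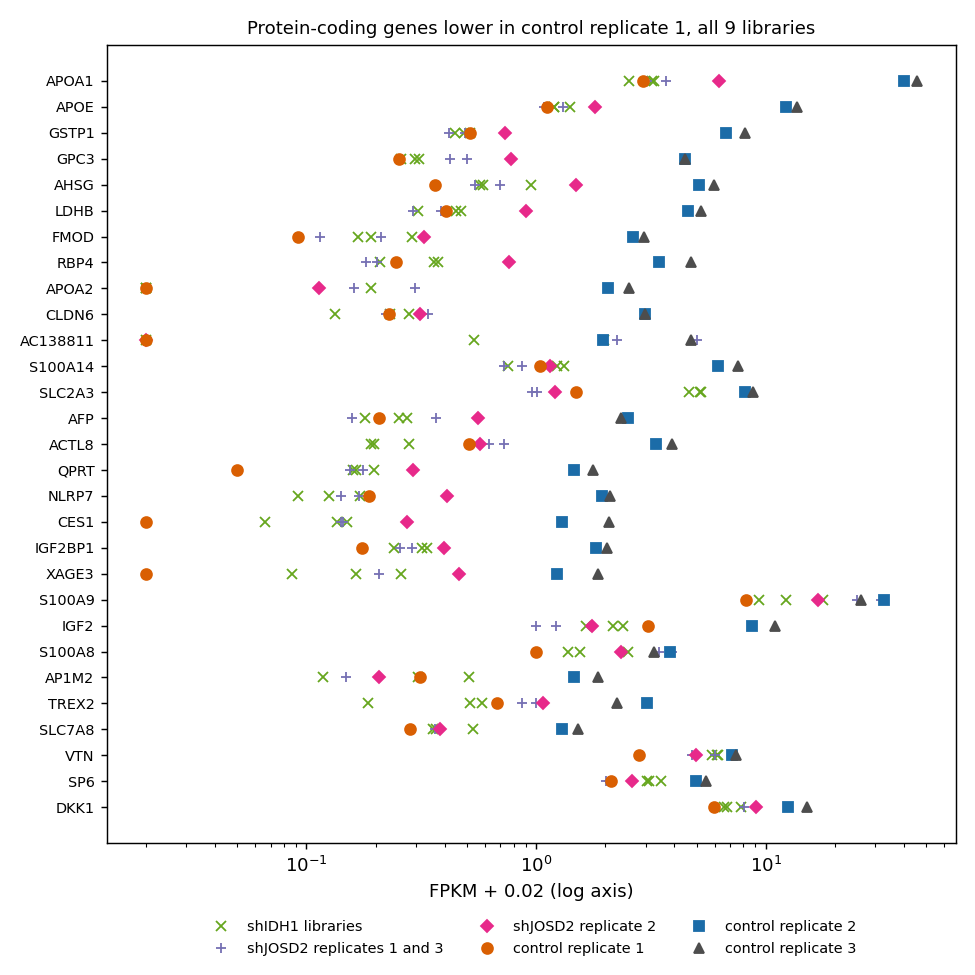
FPKM + 0.02 (log axis) of the 29 protein-coding genes lower in control replicate 1, 1 symbol per library, in the order of the difference. In most rows the knockdown libraries lie beside control replicate 1, with shJOSD2 replicate 2 often the highest of them, while control replicates 2 and 3 lie together at the far right.

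The promoters of liver genes among them are shown because these genes differ together between the control libraries. The 250 bases before the RefSeq gene start (GRCh38.p14) are printed 5′ to 3′ on the strand of the gene for AHSG (chr3:186612810-186613059, plus strand), RBP4 (chr10:93601745-93601994, minus strand) and AFP (chr4:73435971-73436220, plus strand). Capitals mark matches to the motifs of HNF4 (CAAAGTCCA), FOXA (TGTTTAC), C/EBP (TTGCNNAA) and the TATA box (TATAAA), on either strand. Motifs of other factors, such as HNF1, are not marked. The promoters of APOA1 and APOA2, of the hepatocyte list, are not shown. AFP, which is not on that list, was added after its values were seen.
AHSG: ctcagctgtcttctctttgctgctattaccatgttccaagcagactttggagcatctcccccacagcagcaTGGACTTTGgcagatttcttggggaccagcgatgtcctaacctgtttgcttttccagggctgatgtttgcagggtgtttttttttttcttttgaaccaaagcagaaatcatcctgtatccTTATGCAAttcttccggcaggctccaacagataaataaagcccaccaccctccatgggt
RBP4: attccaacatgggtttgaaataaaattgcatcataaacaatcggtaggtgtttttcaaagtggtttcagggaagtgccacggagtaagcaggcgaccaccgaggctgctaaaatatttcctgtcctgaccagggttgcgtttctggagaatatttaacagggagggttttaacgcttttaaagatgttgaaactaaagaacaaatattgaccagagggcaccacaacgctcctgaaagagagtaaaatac
AFP: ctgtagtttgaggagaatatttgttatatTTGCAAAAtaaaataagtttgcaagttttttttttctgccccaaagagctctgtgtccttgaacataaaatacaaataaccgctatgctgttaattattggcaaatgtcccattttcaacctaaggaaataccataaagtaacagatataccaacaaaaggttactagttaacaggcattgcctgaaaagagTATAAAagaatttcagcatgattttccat

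AHSG held an HNF4 match at -179 to -171 and a C/EBP match at -59 to -52, counted from the gene start. AFP held a C/EBP match at -221 to -214 and a TATA box at -29 to -24, and RBP4 held no match in the printed bases. Over the 300 bases that also include 50 after the start, 22 of the 38 genes matched a promoter of the RefSeq table. The HNF4 letters were found in 1 of them and in 0.330% of 15435 promoters, and FOXA letters in 3 and in 2.73%. C/EBP letters were found in 4 of the 22 and in 8.08% of all promoters, and TATAAA in 6 and in 8.27%. A match is a description of the letters and shows no binding.

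The 7 genes higher in replicate 1 were of another kind. AC016026 stood at 8.44, 0.732 and 0.865 FPKM, AL121594 at 14.1, 2.44 and 0.356 and AC244197 at 4.46, 0.630 and 0.613, all genes with clone names. FAM220A stood at 3.10, 0.508 and 0.331 FPKM and UPK3BL1 at 3.33, 0.936 and 0.625, the latter a member of a family of near-identical copies. SNRPGP15 and ATP5MDP1 are pseudogenes, and the values of all 7 are uncertain where reads can be shared with a similar or overlapping gene. At 0 of these genes did all 6 knockdown libraries lie nearer to replicate 1.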

How the data were processed

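Of 9 RNA sequencing libraries, the 3 of scramble control cells are described. They were stranded poly(A) libraries with molecular identifiers, read as pairs, per the labels' protocols. The tools named in the submitters' processing notes are StringTie 1.3.4d, UMI-tools, HISAT2 2.0.4 and cutadapt 1.9, with the build GRCh38. Their roles, the annotation, the strand setting and the use of the identifiers are not given in those sources. Per the file headers, the authors deposited a count and an FPKM value per gene and library. These deposited counts are whole and not normalized, and low ones gather at multiples of 4, from which about 4 counts per fragment were inferred.

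FPKM values were used as deposited. Replicate 1 was compared with replicates 2 and 3 on log2(FPKM + 0.5) among genes with a mean of 1 FPKM or more, at a 2-fold limit and with no test. Replicate numbers pair no samples, since 1 group is described. Gene lists (54, with 916 genes, 891 of them in the table) and members were chosen with earlier results of these data known. Named were the 20 most abundant genes, up to 4 of the highest and 4 near-absent members per list, the markers and targets of the series, and the genes apart in replicate 1. ZEB1, SNAI2, CFTR, ESRP1, GRHL2, ERBB2, FGFR2, BRAF, HK1, CYP1A1, CYP1B1, NSDHL, MTHFD2, LDHB, LDHA, FMOD, VTN, S100A9, IGF2BP1 and other genes outside this rule were chosen after their values were seen. Some results that fell under this rule are not reported here. Gene positions are those of the deposited table, promoters those of RefSeq on GRCh38.p14. Scaling factors came from edgeR 4.0.16 (TMM) and DESeq2 1.42.0 (R 4.3.3), and figures from matplotlib 3.10.9. Levels below 12 counts per library, about 3 fragments, are at the limit of detection. Alternatives were other pseudocounts, filters, limits, scalings and thresholds, and each library left out.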

Additional observations from a re-analysis of the deposited data

How the results depend on the processing

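The count of 38 genes lower in control replicate 1 was 50 with a pseudocount of 0.1 and 28 with 1, 71 with no filter on the mean, 8 with a filter at 5 FPKM and 17 at 4-fold. It was 59 to 64 with replicate 2 or 3 left out and 42 on scaled counts instead of FPKM with either scaling, of which 35 were shared with the 38. The 7 higher genes became 14 with a pseudocount of 0.1, 32 with no filter, 1 at 5 FPKM, 3 at 4-fold, 26 to 33 with replicate 2 or 3 left out, and 3 with only protein-coding genes, a setting added after seeing the data. The 4 hepatocyte genes lower in replicate 1 became 7 with no filter. The number of expressed genes lay between 9482 and 14416 over the other thresholds and TPM, against 11439. The 100 most abundant genes held 22.5% of FPKM with mitochondrial genes left out, against 46.9%. Counts of expressed list members were within 1.5-fold in 259 of 270 recomputed values. Without replicate 1, 12 hepatocyte genes were expressed against 7. No paired analysis was possible because 1 group is described and no result comes from a test. Counts of a few fragments limit the near-absent genes, and intervals are not given since counts are not fragments.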
